A study of Mus musculus with 6 samples.

Results

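Claudins are the membrane proteins that form the strands of the tight junction, the seal between neighbouring epithelial cells. The 10 described here are Cldn1, Cldn2, Cldn3, Cldn4, Cldn6, Cldn7, Cldn8, Cldn10, Cldn12 and Cldn19, taken by symbol from a list and not by their values. They are 10 of 22180 genes that had a probe set with a single gene symbol, and 10 of 30 claudin genes with such a value. Each gene is represented by its brightest probe set, and only Cldn19 had more than 1. A filter that left out the 40% of genes with the lowest mean signal (log2 5.37 or less over all arrays) kept 7 of the 10 among 13308 tested genes. Cldn2, Cldn6 and Cldn10 lay below it.

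Claudins differ in what they let pass. Some tighten the path between cells against ions, while others line it with pores selective for cations or anions, and the mix in a strand sets the permeability of an epithelium. In the kidney each nephron segment has its own set, with Cldn3, Cldn4, Cldn7 and Cldn8 typical of the collecting duct, Cldn2 and the Cldn10 isoform Cldn10a of the proximal tubule, and Cldn10b and Cldn19 of the thick ascending limb. For the comparison of types, Cldn1, Cldn3, Cldn4, Cldn6, Cldn7, Cldn8 and Cldn19 were counted as barrier claudins and Cldn2 and Cldn10 as pore claudins. Cldn12 was kept apart because its type is not settled.

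RNA came from 6 samples of IMCD cells, a mouse cell line derived from the inner medullary collecting duct, and was measured on 1 array each. The cells were stable lines made with a lentivirus that carried GFP and ILK on 1 bicistronic transcript. Integrin-linked kinase, or ILK, binds integrins at focal adhesions and links them to actin. The added ILK was wild type in 3 samples and the missense variant ILK-T173I in the other 3. A stimulus of EGF (20 ng/ml, 15 minutes) followed by 1 hour of incubation was shared by all 6, so no sample shows these genes without EGF or without added ILK. The labels call the samples of a group biological replicates. Neither the labels nor the design text say how many stable lines a group holds. With 1 line per group, line and variant cannot be told apart.

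The array of T173I replicate 1 stood apart from the rest of its group. On the first principal component of the 13308 genes, which held 57.4% of the variance, it lay at -11.4, within the wild-type values of -18.3 to -11.3, while T173I replicates 2 and 3 lay at 38.3 and 15.8. Results that rest on this are given below with and without that array. It was singled out on these same values, and leaving out the T173I array most like wild type favours larger differences. Called genes went from 0 to 156 without it. The p-values of that fit therefore describe the remaining arrays and are no support for a difference. T173I replicate 2 was the array furthest from wild type. There 4.26% of genes lay at least 1 log2 unit from their wild-type mean, against 0.69% and 1.74% on T173I replicates 1 and 3. Of 10 markers of the inner medullary collecting duct, 7 passed the filter, among them Krt8, Krt18, Krt19 and Hoxb7. The water channel Aqp2 lay between 5.97 and 6.25 on the 6 arrays, little above the filter, and Aqp3 and the urea transporter Slc14a2 lay below it. Against 60% of all genes, 1 of 6 markers of the thick ascending limb passed, 2 of 4 of the thin limb, 3 of 8 of the proximal tubule and 3 of 8 of intercalated cells. For the distal convoluted tubule 3 of 4 passed and for podocytes 4 of 4. For fibroblasts 3 of 8 passed, for endothelium 1 of 6 and for macrophages 2 of 6.

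Cldn8 and Cldn1 differed most between the groups, in opposite directions, and Cldn4 came next. Mean Cldn8 signal was 4.39-fold lower in T173I, mean Cldn1 signal 2.22-fold higher and mean Cldn4 signal 1.47-fold higher. The other 7 claudins had differences of 0.175 log2 units or less in size. No claudin passed the threshold of limma's test with Benjamini-Hochberg adjustment over all genes (adjusted p under 0.05), and 0% of the 13308 genes did. In the same test 2 of the 7 tested claudins, Cldn1 and Cldn8, had an unadjusted p under 0.05, a level reached by 10.2% of all genes. The same 2 differed by at least 2-fold, which 1.19% of genes did, and they also combined the unadjusted level with at least 1.5-fold, which 2.74% of genes did. Cldn8 lay under the filter level on T173I replicates 2 and 3 (4.23 and 4.97) and passed it through the other arrays. Its place in these counts is therefore no support for a difference. In none of the 7 were the 2 groups of arrays free of overlap, against 15.2% of all genes.

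**Figure D1:**
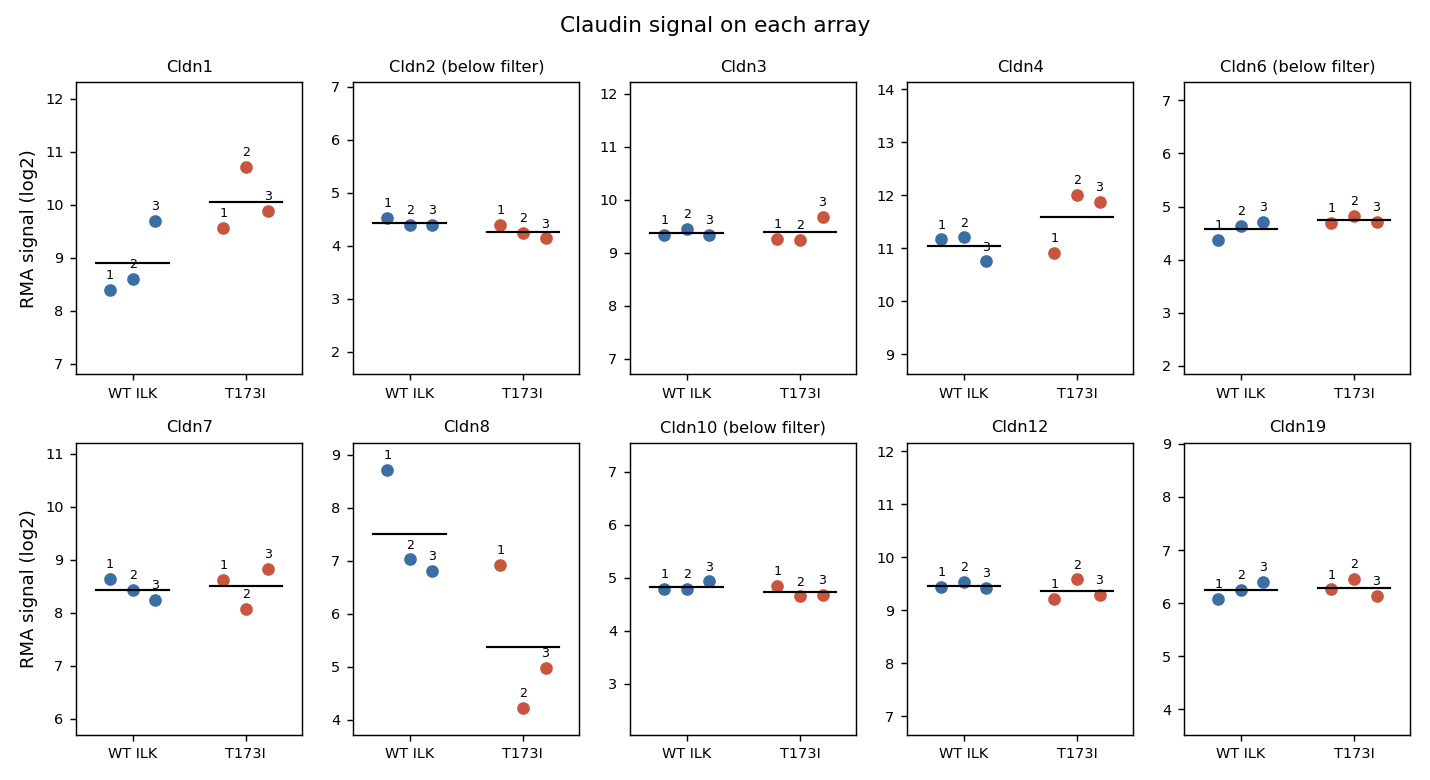
RMA signal (log2) of the 10 claudins on each array, with the replicate number above each point and the group mean as a line; each panel spans the same number of log2 units around its own gene, so levels are not to be compared between panels. Cldn8 reached from 8.71 on wild-type replicate 1 to 4.23 on T173I replicate 2, while Cldn2, Cldn3, Cldn6, Cldn10, Cldn12 and Cldn19 stayed within 0.46 log2 units.

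Cldn8 encodes a claudin of the distal nephron and collecting duct that restricts the backflow of sodium between cells and that pairs with Cldn4 in an anion-selective path. Its log2 signal was 8.71, 7.03 and 6.80 on wild-type replicates 1, 2 and 3 and 6.93, 4.23 and 4.97 on T173I replicates 1, 2 and 3. T173I replicates 2 and 3 lay below every other array, while T173I replicate 1 lay inside the wild-type range. Means were 7.51 ± 1.04 (SD, n = 3) for wild-type arrays and 5.38 ± 1.39 (SD, n = 3) for T173I arrays. The difference of -2.13 log2 units (95% interval -4.01 to -0.26) had an adjusted p of 0.48 in limma's test. It was the 4th most negative of the 13308 differences, with a T173I mean close to the filter level of 5.37.

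The spread of Cldn8 within a group was also among the widest measured. Its wild-type SD of 1.04 ranked 17th of 13308 genes and its T173I SD of 1.39 ranked 34th, where the median gene had 0.098 and 0.16. In wild type the highest array was replicate 1, apart from the other two. Without wild-type replicate 1 the Cldn8 difference was -1.54, and without T173I replicate 2 it was -1.56. Without T173I replicate 1 the Cldn8 difference was -2.91. The T173I signals left in that fit, 4.23 and 4.97, lie under the level at which the filter was set, so no adjusted p is given for it. The array gives a mean over all cells of a culture, so fewer cells with Cldn8 and less Cldn8 RNA per cell cannot be told apart.

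Cldn1 encodes a broadly expressed claudin that seals the path between cells. Its log2 signal was 8.40, 8.60 and 9.70 on wild-type replicates 1, 2 and 3, and 9.56, 10.71 and 9.88 on T173I replicates 1, 2 and 3. Wild-type replicate 3 overlapped the T173I arrays and lay above T173I replicate 1. The group means were 8.90 ± 0.70 (SD, n = 3) and 10.05 ± 0.60 (SD, n = 3), which differed by 1.15 (95% interval 0.15 to 2.15, limma adjusted p = 0.48). This was the 48th highest of the 13308 differences. Leaving out single arrays gave differences of 0.82 to 1.55, the lowest without T173I replicate 2 and the highest without wild-type replicate 3.

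Cldn4, which forms a barrier to sodium and a path for chloride in the collecting duct, was higher on the same 2 T173I arrays on which Cldn8 was lowest. Its log2 signal was 11.17, 11.21 and 10.75 in wild type and 10.91, 12.00 and 11.87 in T173I. T173I replicate 1 again lay inside the wild-type range, and replicates 2 and 3 lay above all wild-type arrays. The means were 11.04 ± 0.25 (SD, n = 3) and 11.60 ± 0.60 (SD, n = 3), with a difference of 0.55 (95% interval -0.16 to 1.27, limma adjusted p = 0.54). Without T173I replicate 1 the Cldn4 difference was 0.90 (limma adjusted p = 0.066), a 1.86-fold higher signal. Without T173I replicate 2 it was 0.35.

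With T173I replicate 1 left out, 3 of the 7 tested claudins, Cldn1, Cldn4 and Cldn8, had an unadjusted p under 0.05 in limma's test, against 22.1% of all genes. None of the 7 passed the adjusted threshold, which 1.17% of genes then did. On that fit the mean Cldn1 signal was 2.63-fold higher. No fold or adjusted p is given for Cldn8 there, and its place among the 3 is no support for a difference. Both remaining T173I arrays lay under the filter level, and the gene passed it through the wild-type arrays. Cldn3, Cldn7, Cldn12 and Cldn19 had differences of -0.025 to 0.088.

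**Figure D2:**
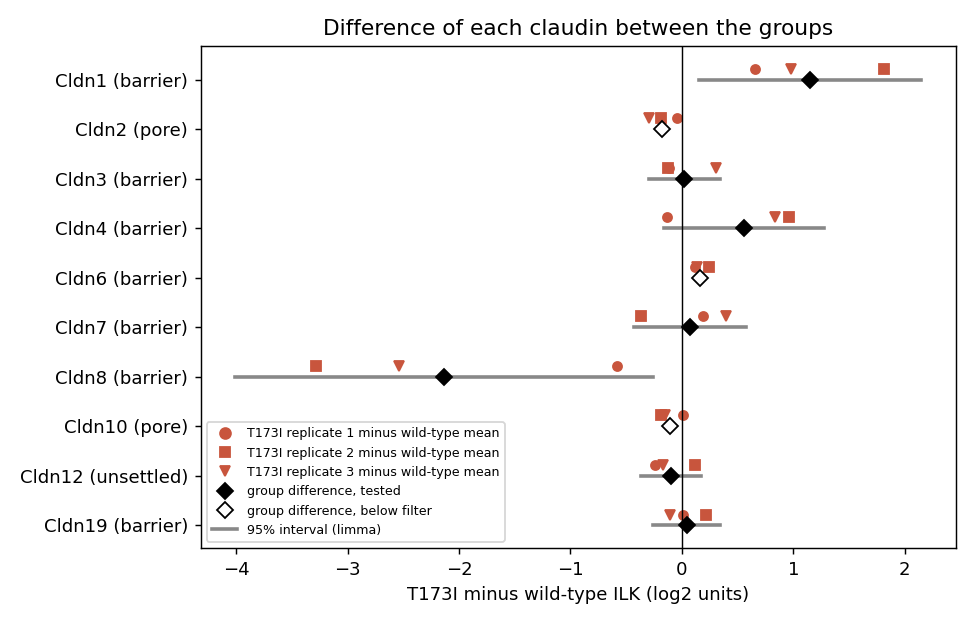
Difference of each claudin, T173I minus wild-type ILK in log2 units: diamonds are group differences, grey lines limma's 95% intervals for the 7 tested genes, and coloured symbols each T173I array minus the wild-type mean. Cldn8 lies at -2.13 and Cldn1 at 1.15, with intervals that leave out 0, while the intervals of Cldn3, Cldn4, Cldn7, Cldn12 and Cldn19 include it. The intervals are not adjusted over genes, and limma's adjusted p is 0.48 for both Cldn8 and Cldn1.

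Cldn1 and Cldn8 ordered the 6 arrays in exactly opposite ways, an order noticed after the values were seen. From the highest Cldn8 signal to the lowest, the arrays ran from wild-type replicates 1 and 2 through T173I replicate 1, wild-type replicate 3 and T173I replicate 3 to T173I replicate 2, and Cldn1 was higher at each step. This pair had the most negative Spearman coefficient (-1, with a Pearson coefficient of -0.90) of the 21 pairs of tested claudins over 6 arrays. Cldn7 and Cldn19, whose groups differed little, had nearly the same Pearson coefficient (-0.90) and a Spearman coefficient of -0.89. The coefficient describes arrays that share their group differences and is given with no test. Cldn4 and Cldn8 did not share a full order (Spearman -0.49, Pearson -0.77), since Cldn4 stayed between 10.75 and 11.21 on the 4 arrays where Cldn8 ranged from 6.80 to 8.71. The log2 signal of Cldn4 minus that of Cldn8 was 2.46, 4.18 and 3.95 on the wild-type arrays and 3.98, 7.78 and 6.90 on the T173I arrays. On T173I replicates 2 and 3 Cldn4 lay above and Cldn8 below all wild-type arrays, so this gap was wider there. On T173I replicate 1 the gap lay between those of wild-type replicates 2 and 3.

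**Figure D3:**
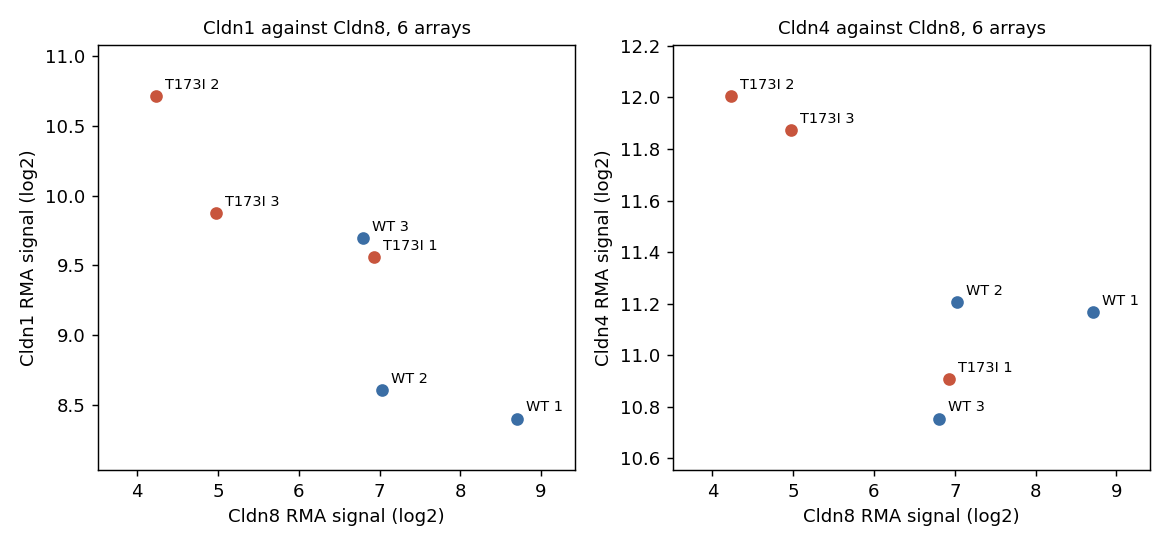
Log2 RMA signal of Cldn1 (left) and Cldn4 (right) against Cldn8, 1 point per array, blue for wild-type ILK and red for T173I. T173I replicates 2 and 3 lie at the lowest Cldn8 signals (4.23 and 4.97) and the highest Cldn1 and Cldn4 signals, and T173I replicate 1 lies among the wild-type arrays.

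The promoters of Cldn1, Cldn4 and Cldn3 are shown because the first pair had the largest positive differences, while Cldn3, the neighbour of Cldn4 on chromosome 5, had a difference of 0.021. They are the 250 bases before the start site from RefSeq (GRCm38.p6), which held promoters of 9 of the 10 claudins, without Cldn8. Capitals mark matches on either strand to 5 motifs, and no matches overlap in the stretches shown. The box of Sp and KLF factors was searched as GGGCGG, the E-box of the Snail and Zeb kind as CACCTG and the AP-1 site as TGANTCA. The Grainyhead site was searched as AACNNGTT, and for the box near the start bound by TBP the letters were TATAAA. The Cldn1 stretch is chr16:26371840-26372089, minus strand. The Cldn4 stretch is chr5:134946935-134947184, minus strand, and the Cldn3 stretch is chr5:134985964-134986213, plus strand.
Cldn1: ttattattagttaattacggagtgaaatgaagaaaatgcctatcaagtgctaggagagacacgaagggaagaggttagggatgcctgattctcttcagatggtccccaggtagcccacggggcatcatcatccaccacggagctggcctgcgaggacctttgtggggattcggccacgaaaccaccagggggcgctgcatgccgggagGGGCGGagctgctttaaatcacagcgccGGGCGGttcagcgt
Cldn4: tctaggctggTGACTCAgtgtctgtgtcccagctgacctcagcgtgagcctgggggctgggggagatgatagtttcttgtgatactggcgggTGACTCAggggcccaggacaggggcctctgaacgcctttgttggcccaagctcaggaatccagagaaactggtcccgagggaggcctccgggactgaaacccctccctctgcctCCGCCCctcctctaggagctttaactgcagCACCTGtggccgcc
Cldn3: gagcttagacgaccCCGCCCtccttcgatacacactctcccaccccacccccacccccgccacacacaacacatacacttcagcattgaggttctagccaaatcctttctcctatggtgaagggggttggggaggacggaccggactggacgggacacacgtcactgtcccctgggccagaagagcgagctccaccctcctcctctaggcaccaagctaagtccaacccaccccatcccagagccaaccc

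Cldn1 held 2 Sp/KLF boxes, which began 42 and 14 bases before the start, and no match to the other 4 motifs. Cldn4 held 1 Sp/KLF box at 44 bases, 1 E-box at 14 bases and 2 AP-1 matches at 240 and 158 bases before the start. Cldn3 held a single Sp/KLF box at 236 bases. Of 32851 mouse promoter stretches of the same length, 32.7% held an Sp/KLF box, 17.2% the E-box, 6.75% the AP-1 letters, 3.64% the Grainyhead letters and 12.4% those of the TBP box. The 9 claudins had 14 such stretches, some of them overlapping, of which 10 held an Sp/KLF box, 3 the E-box, 1 the AP-1 letters and 1, that of Cldn2, the TBP box. Matching letters are a description of these stretches, and binding was not measured.

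The remaining barrier claudins that passed the filter differed little between the groups. Cldn3, an abundant claudin of tight epithelia, ranged from 9.34 to 9.45 in wild type and from 9.25 to 9.68 in T173I, with a difference of 0.021 (95% interval -0.30 to 0.34, limma adjusted p = 0.96). Its highest array was T173I replicate 3 and its lowest T173I replicate 2, whereas its neighbour Cldn4 was high on both. Cldn7, which is bound by the adhesion protein Epcam and found along the lateral membrane, ranged from 8.24 to 8.63 and from 8.07 to 8.83. Its difference was 0.072 (95% interval -0.43 to 0.57, limma adjusted p = 0.91), and T173I replicates 2 and 3 were its lowest and highest arrays. Cldn19, a partner of Cldn16 in the thick ascending limb, ranged from 6.07 to 6.40 and from 6.14 to 6.46. The brighter of 2 probe sets for Cldn19 gave a difference of 0.043 (95% interval -0.26 to 0.34, limma adjusted p = 0.91) and the dimmer one 0.093. The intervals leave room for changes of up to 0.57 in Cldn7 and 0.34 in Cldn3 and Cldn19.

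Cldn12, which lacks the carboxy-terminal anchor for scaffold proteins that most claudins have and is linked to calcium permeability, ranged from 9.43 to 9.53 in wild type and from 9.22 to 9.58 in T173I. Its arrays overlapped, with a difference of -0.098 (95% interval -0.37 to 0.17, limma adjusted p = 0.75). Its wild-type SD of 0.057 was the smallest of the 7 tested claudins.

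The pore claudins and Cldn6 lay below the filter and were not tested. Cldn2, a channel for sodium and water in leaky epithelia, ranged from 4.39 to 4.52 in wild type and from 4.14 to 4.39 in T173I, with the same value of 4.39 on wild-type replicates 2 and 3 and T173I replicate 1. Cldn10, whose isoforms form an anion or a cation pore and share this probe set's symbol, ranged from 4.78 to 4.93 and from 4.65 to 4.84. Cldn6, a barrier claudin of embryonic epithelia, ranged from 4.36 to 4.72 and from 4.69 to 4.82. The groups overlapped in all 3, with differences of -0.17 for Cldn2, -0.11 for Cldn10 and 0.17 for Cldn6.

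As a type, the barrier claudins held differences of both signs. Of 7 members, 6 had a higher mean in T173I and 1, Cldn8, a lower mean, but 4 of the differences were under 0.2 log2 units, and the median was 0.072. The pore claudins, both below the filter, had 2 of 2 lower means and a median of -0.14. Lower means were not particular to the pore type. Other claudins below the filter had them too, among them Cldn5 (-0.15), Cldn18 (-0.099) and Cldn34a (-0.19), while Cldn14 (0.0060) and Cldn15 (0.24) had higher means. Over all 13308 tested genes, which leave out both pore claudins, the median difference was -0.011, and the median size of a difference was 0.12. Relative to the wild-type mean of each gene, the median of the barrier type was 0.014, 0.22 and 0.30 on T173I replicates 1, 2 and 3, against -0.038 to 0.012 on the wild-type arrays. The median of the pore type was -0.018, -0.19 and -0.22, against -0.048 to 0.026.

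Outside the 10 genes, 4 claudins passed the filter: Cldn9, Cldn11, Cldn13 and Cldn23. Their differences ran from -0.049 to 0.063, and none passed the adjusted threshold. Cldn9 lies beside Cldn6 in the genome, and Cldn16 and Cldn17, the neighbours of Cldn1 and Cldn8, lay below the filter. Cldn17 held a single value, 3.71, on all arrays but wild-type replicate 3.

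None of the tested membrane proteins and scaffolds of the junction differed by as much as Cldn1 or Cldn8. Among 9 tested membrane proteins of the tight junction, 3 had higher and 6 lower means (median -0.11). In limma's test 0 passed the adjusted threshold and 0 an unadjusted p under 0.05, beside 0% and 10.2% of all genes. Ocln, occludin, differed by -0.034. Marveld2, the tricellulin of tricellular corners, had a difference of 0.32. Marveld3 had one of -0.38, Ildr1, an angulin of those corners, one of -0.51, and Ildr2, another angulin, one of -0.11. Among 20 tested scaffold and polarity genes, 10 were higher and 10 lower (median 0.0017), with 1 in each direction at an unadjusted p under 0.05, beside 10.2% of all genes. The groups did not overlap in 3 of the 20, Pard6b, Ybx3 and Sympk, beside 15.2% of all genes, so neither count stands out from the background. Pard6b, a polarity protein, had a difference of 0.34 and Amot, a scaffold that binds polarity and Hippo pathway proteins, one of -0.75. Tjp1, or ZO-1, the main scaffold under claudins, had 0.15, Magi3 0.20 and Ybx3 0.16.

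Of 12 tested kinases, proteases and binding partners of claudins, 5 were higher and 7 lower (median -0.088). An unadjusted p under 0.05 in limma's test was reached by 0 of them, beside 10.2% of all genes. Wnk1, a kinase of distal salt transport, had a difference of 0.40 and its substrate Oxsr1 one of 0.28. Prss8, a membrane-anchored protease, differed by -0.67, with its lowest signal, 8.95, on T173I replicate 2. Itch, a ubiquitin ligase, had one of -0.16. It was the single gene of the 12 whose groups did not overlap, beside 15.2% of all genes, so this count does not stand out.

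Among 16 tested regulators of epithelial genes, 8 were higher and 8 lower (median 0.0014), and 0 passed the adjusted threshold in limma's test. An unadjusted p under 0.05 was reached by 2 with a higher mean and 1 with a lower one, beside 10.2% of all genes. The groups did not overlap in 3 of the 16, Gata3, Ovol1 and Ehf, beside 15.2% of all genes. Ovol1, a repressor that maintains epithelial identity, had a difference of 0.79 and Grhl3, a Grainyhead factor of barrier genes, one of 0.91. Grhl3 was at 8.72 and 8.71 on T173I replicates 1 and 3 but at 7.45 on replicate 2, where wild-type arrays reached from 7.21 to 7.53, and so did not share the pattern of Cldn1, Cldn4 or Cldn8. Gata3, which guides development of the ureteric bud, gave a difference of -0.78 on its brighter probe set and of 0.017 on its second. Ehf, an Ets factor of epithelia, had a difference of -0.68. Elf3, another epithelial Ets factor, was at 9.26 to 9.37 in wild type and at 9.62, 8.37 and 8.62 in T173I. Without T173I replicate 1 its difference was -0.83 with a limma adjusted p of 0.037, the single gene of these 5 lists to pass then, named here after its values were seen.

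**Figure D4:**
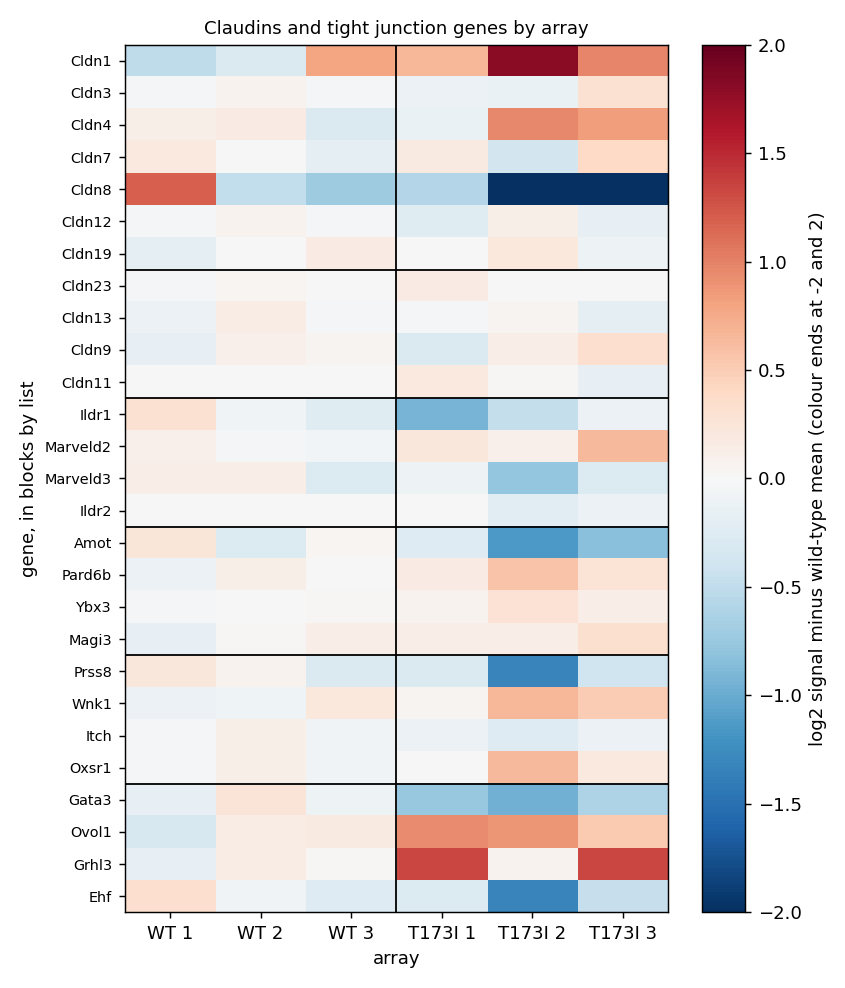
Log2 signal minus the wild-type mean (colour) on each array for the 7 tested claudins and, below them in blocks, the tested genes of each list with the smallest unadjusted p in limma's test: other claudins, membrane proteins, scaffolds, kinases and partners, and gene regulators. The Cldn8 row goes past the low end of the colour scale on T173I replicates 2 and 3 (-3.28 and -2.54), and the group differences in the block of other claudins run from -0.049 to 0.063.

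Genes whose signal followed that of a claudin over the 6 arrays were ranked by Pearson coefficient, for the 3 claudins that ranged over at least 1 log2 unit. For Cldn8 these were Tspan13, a tetraspanin (0.999), Qsox2, a sulfhydryl oxidase (0.993), and Tax1bp3, a PDZ-domain protein (0.991). Tspan13 was at 9.77, 9.28 and 9.25 in wild type and at 9.29, 8.52 and 8.76 in T173I. For Cldn1 they were Fastkd1 (0.993), Pld1, phospholipase D1 (0.993), and Thada (0.987), and for Cldn4 they were Hmx2 (0.995), Ifitm5 (0.993) and Ddx56 (0.984). With 6 points and 13308 genes, 154, 61 and 67 protein-coding genes had a coefficient over 0.95 with Cldn8, Cldn1 and Cldn4, so these names describe likeness on these arrays only.

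Among 6 tested principal cell markers, Scnn1g, the gamma subunit of the epithelial sodium channel, had the largest difference. It was at 7.87, 7.28 and 7.69 in wild type and at 7.64, 5.90 and 5.71 in T173I, a difference of -1.19 (limma adjusted p = 0.49). As with Cldn8, replicates 2 and 3 lay below the wild-type arrays and replicate 1 lay within them, and without replicate 1 the Scnn1g difference was -1.80 (limma adjusted p = 0.027). Of 12 principal cell markers 6 passed the filter, and the mean log2 signal of all 12 was 5.69 to 5.79 in wild type and 5.43 to 5.75 in T173I. Their mean relative to wild type was 0.027, -0.30 and -0.26 on T173I replicates 1, 2 and 3, against -0.043 to 0.062 on the wild-type arrays. Scnn1g made up much of this, and for the other 11 the mean was 0.027, -0.17 and -0.11, against -0.044 to 0.060. The part of these markers in the Cldn8 result was not tested. The mean of 6 endothelial markers was 4.86 to 4.97 in wild type and 5.02 to 5.24 in T173I, with 1 of them, Flt1, past the filter. Flt1 made up most of this on T173I replicates 2 and 3, at 6.72 and 6.68 against 5.46 to 5.65 in wild type. Its difference was 0.84 over all arrays. Without T173I replicate 1 it was 1.17 and passed limma's adjusted threshold (adjusted p = 0.018). The mean of podocyte markers relative to wild type was -0.17, -0.16 and -0.22 on the T173I arrays against -0.057 to 0.099 on the wild-type arrays. Different genes made up this mean, and of the 4 tested 2 were higher and 2 lower in T173I. Podxl was at 5.62, 7.15 and 6.71 on T173I replicates 1, 2 and 3, against 6.24 to 6.64 in wild type. Synpo was at 6.59, 5.55 and 5.61, against 6.40 to 6.72. Synpo differed by -0.66 and passed limma's adjusted threshold without T173I replicate 1 (adjusted p = 0.032). Of 2 macrophage markers past the filter, Cd68 differed by 1.10 and Csf1r by -0.78, in opposite directions. Both had no overlap, beside 15.2% of all genes.

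The mean of 10 markers of the inner medullary collecting duct itself was higher on all 3 T173I arrays, by 0.12, 0.26 and 0.16, against -0.046 to 0.053 on the wild-type arrays. Krt19 made up most of this mean, at 8.18, 8.62 and 8.81 in wild type and at 9.43, 10.63 and 10.39 in T173I. Of the 7 tested markers 5 had a higher mean and 2 a lower one, Gata3 (-0.78) and Wnt7b (-0.21). The groups did not overlap in 5 of the 7 tested markers, beside 15.2% of all genes. Higher in T173I were the keratins Krt8 (a difference of 0.64), Krt18 (0.44) and Krt19 (1.62, 3.07-fold) and Hoxb7 (0.12). Gata3 was lower, on its brighter probe set. In limma's test over all 6 arrays none of them passed the adjusted threshold, and Krt19 did without T173I replicate 1 (1.97, adjusted p = 0.027). The adjusted p-values of markers without T173I replicate 1 are under the limit given with that array and are no support for a difference. The part of any of these marker lists in the claudin differences was not tested.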

How the data were processed

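The authors deposited log2 signals of 41345 probe sets; the submitters' processing notes name RMA, with no version. RMA makes the arrays' signal distributions alike, so a shift shared by most genes would not be seen. Signals of different probe sets are not on a common scale, so levels were compared only across arrays. The platform annotation gave 23521 probe sets a single symbol, which named 22180 genes.

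T173I was compared with wild type with limma (version 3.58.1, R 4.3.3; lmFit and eBayes) over all 6 arrays and 13308 genes, two-sided, with Benjamini-Hochberg adjustment over all of them. The script was tested on simulated data, in which arrays were independent and both groups had the same spread. The groups here had unequal spread, so that test does not show how the fit does on them. The p-values measure the spread between these samples, which may be technical. Precision is limited by having 6 arrays. The exact permutation test of 3 against 3 arrays cannot give a p below 0.1, so it was not used for calls.

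The members, the gene lists, the motifs and the rules were chosen with earlier results of these data known. Named genes are the 10 claudins, other tested claudins, up to 4 members of each list with the smallest unadjusted p, and the 3 genes most like each wide-ranging claudin (a range of at least 1 log2 unit). Ocln, Tjp1, Elf3, Scnn1g, Sympk, Cldn16, Cldn17 and the markers fall outside this rule and were chosen after their values were seen. Alternatives covered the filter, the eBayes prior, normalization, array weights, how a gene's probe sets were combined, the replicate block, the claudin types and leaving out each array.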

Additional observations from a re-analysis of the deposited data

How the results depend on the processing

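With 3 arrays per group, a gene as variable as Cldn8 has an interval of -4.01 to -0.26. No tested claudin passed the adjusted threshold in limma's test under any alternative that was run. Cldn1 (0.82 to 1.55), Cldn4 (0.35 to 0.90), Cldn8 (-2.91 to -1.54) and Cldn12 (-0.21 to -0.025) kept their direction under all that gave a value; a filter leaving out 60% of genes removed Cldn8 and Cldn19. Leaving out single arrays gave 0 to 156 called genes, the latter without T173I replicate 1, and 0 to 1 called gene regulators. The 1357 genes at an unadjusted p under 0.05 became 2856 with array weights, 2946 without T173I replicate 1, and 670 and 795 without wild-type replicates 1 and 2. Leaving out each of the 6 arrays in turn, at least 1 omission turned the sign for Cldn3 (-0.12 to 0.094), Cldn7 (-0.091 to 0.29), Cldn19 (-0.045 to 0.12), Cldn9 (-0.073 to 0.24), Cldn11 (-0.064 to 0.11) and Cldn13 (-0.11 to 0.025). Array weights turned Cldn19 to -0.041 and Cldn11 to -0.077; the cause was not tested. The median of the barrier claudins stayed between 0.060 and 0.17 and that of the pore claudins between -0.20 and -0.10; counting Cldn4 and Cldn8 as pore claudins cannot move either, since they lie on opposite sides. Same-numbered arrays correlated by 0.048 to 0.067 in their deviations, too low to treat equal numbers as a pairing. With the replicate block Cldn8 kept its difference of -2.13 (limma adjusted p = 0.22), 0 genes were called, and 3 of the 6 arrays correlated best with their own number.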
